A study of Mus musculus with 63 samples.

Results

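mmu-miR-744 (miR-744) is a mouse microRNA that was read by 1 assay on each of 63 microfluidic qPCR cards, each loaded with RNA from the plasma exosomes of 1 mouse. The assay was picked by its name on the card, and it was 1 of the 61 assays retained out of the 384 wells of a card. It was chosen with its lower level in knockout than in wild-type mice already known, so its levels and the differences between genotypes are described here without a test. The question was how the level stood in mice with each liver lesion and at each age, and which other exosomal microRNAs (Exo-miRs) varied with it from mouse to mouse.

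The mice were a model of glycogen storage disease type 1a, the inherited lack of the glucose-releasing enzyme glucose-6-phosphatase. In LS-G6pc-/- mice the gene of its catalytic subunit, G6pc, was deleted in the liver only, so the model leaves out the kidney and the intestine. The promoter that drove the deletion is not given in the sources used here. With age such mice develop hepatocellular adenoma (HCA), a benign liver tumour, and amyloidosis, a deposition of misfolded protein. The 45 LS-G6pc-/- mice (KO) held 9 with adenoma only, 7 with both lesions, 6 with amyloidosis only and 23 with neither, and the 18 wild-type (WT) mice had normal livers. Age group 1 covered months 1 to 3, age group 2 months 4 to 6, age group 3 months 7 to 9, age group 4 months 10 to 12, age group 5 months 12 to 15 and age group 6 months 16 to 18. From age group 1 to 6 there were 4, 6, 5, 4, 10 and 16 KO mice, with 3 WT mice in each. All mice with a lesion were in age groups 5 and 6, whereas KO mice without lesions numbered 4, 6, 5, 4, 3 and 1 from age group 1 to 6.

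MicroRNAs are short RNAs that guide silencing complexes to messenger RNAs, mainly through their seed, the bases at positions 2 to 8. Cells release part of their microRNAs in exosomes, small membrane vesicles that pass into the blood. Plasma exosomes come from many tissues at once, so a lower level can reflect fewer vesicles of one origin or less of the microRNA in each, and these cannot be told apart here. miR-744 is known as a direct regulator of the transcript of TGF-beta 1, a cytokine of fibrosis, and is made from a hairpin precursor whose arms can each give a mature strand.

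The hairpin and its arms are shown because the study names the assay after a mature strand made from them. They are given 5′ to 3′ from RefSeq on build GRCm38.p6, where the hairpin lies at chr11:65734733-65734832 on the minus strand. Capitals mark both mature strands in the hairpin.
Mir744 hairpin: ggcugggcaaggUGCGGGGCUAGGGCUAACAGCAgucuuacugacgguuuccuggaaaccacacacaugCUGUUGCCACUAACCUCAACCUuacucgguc
In the mature strands, capitals mark the seed.
miR-744-5p: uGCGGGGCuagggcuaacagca
miR-744-3p: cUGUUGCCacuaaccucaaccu
The 5p strand lies at chr11:65734799-65734820 and the 3p strand at chr11:65734742-65734763. The study names the assay miR-744-5p, and the probe sequence was not analysed here. None of the 1679 mature mouse names in the RefSeq table shares the seed of either strand with it, so no other member of a seed family of miR-744 was found there. Assays of the card whose names are absent from that table were not checked. The hairpin lies within the span of Map2k4, a kinase gene of the stress pathway that leads to JNK, at chr11:65688244-65788359, and both are on the minus strand. It starts 53527 bases downstream of the start of the gene. Whether this is exon or intron was not determined, since the gene table used holds only gene bounds.

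For comparison, the other microRNAs on which the results turn are shown with their seeds in capitals. miR-195 and miR-30e varied with miR-744 in both genotypes, let-7i and miR-342-3p are named beside it by the study, and miR-29a stood next to it in the order of the genotype difference.
miR-195a-5p: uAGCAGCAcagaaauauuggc
miR-30e-5p: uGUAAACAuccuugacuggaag
let-7i-5p: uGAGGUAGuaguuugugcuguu
miR-29a-3p: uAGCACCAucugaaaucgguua
miR-342-3p: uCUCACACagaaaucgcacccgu
These lie at chr11:70235062-70235082 (plus strand), chr4:120772660-120772681 (minus), chr10:122985698-122985719 (minus), chr6:31062673-31062694 (minus) and chr12:108658680-108658702 (plus). No seed among the 5 equals that of either miR-744 strand. miR-195 shares its seed with 2 other retained assays, miR-15b and miR-16, and let-7i shares its seed with 5.

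The cards gave cycle threshold (Ct) values, the PCR cycle at which a well crosses a fixed signal, so that 1 cycle less stands for about a doubling of the template. A Ct between 14 and 32 counted as measured. The number of measured assays per card went down to 68, with a median of 120 in KO mice and 150.5 in WT mice, and 8 KO mice and 1 WT mouse had fewer than 100. miR-744 was measured in 62 of 63 mice. The exception was a KO mouse without lesions in age group 2, with 91 measured assays, in which miR-744 had a Ct of 32.10, just above the limit. Its level was set 1 cycle below the lowest level measured, at −4.00 on the card mean scale, against −3.79 from its own Ct. The raw Ct averaged 27.92 ± 1.59 in KO mice and 26.06 ± 1.16 in WT mice (SD, n = 45 and 18).

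Levels were read on 2 log2 scales. On the card mean scale, the level was the mean of all measured Ct values of the card minus the Ct of miR-744, so 0 stands for the average measured assay. On the shared-assay scale, the reference was the average Ct of the 44 assays that all 63 mice had measured (40 microRNA assays and 4 wells of U6, a nuclear RNA used as a control). That level was negative throughout because the shared assays are the abundant ones. The card mean itself depends on how many weak assays were measured, so both scales are given for each result. By mean level miR-744 ranked 48th in KO mice and 37th in WT mice on both scales, among the 61 retained assays. These are assays that nearly all mice measured. Relative to the median measured Ct of a card, its level averaged 0.0040 in KO mice and 2.07 in WT mice.

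miR-744 was lower in KO than in WT mice in every lesion group and in every age group, on both scales. On the card mean scale it averaged −0.61 ± 1.30 in KO mice and 1.33 ± 0.84 in WT mice (SD, n = 45 and 18), a difference of −1.94 that amounts to a 3.85-fold higher level in WT mice. It averaged, on the shared-assay scale, −3.09 ± 0.88 in KO mice and −2.05 ± 0.54 in WT mice, a difference of −1.05 that amounts to 2.06-fold. Of 45 KO mice, 27 lay below the lowest WT mouse on the card mean scale and 23 on the shared-assay scale. The genotypes overlapped, as 4 KO mice lay above the WT median and 5 WT mice lay above all KO mice on the card mean scale.

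The difference was large among the 61 retained assays, and assays that were not retained were not ranked. The median difference over the 61 assays was itself −0.97 on the card mean scale, where 56 assays lay below 0, and −0.08 on the shared-assay scale, where 36 did. miR-744 had the second lowest difference on both scales, after miR-29a at −2.40 and −1.54. miR-29a, known for its role in restraining collagen genes, belongs to a different seed family. The other end was held by miR-409-3p, at 1.03 and 1.89. These places are part of why miR-744 was chosen and stand here as a description.

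Without lesions the level was already low. On the card mean scale, the 23 KO mice without lesions ranged from −4.00 to 1.76 with a median of 0.02, against −0.20 to 3.39 with a median of 1.34 in WT mice. Their mean was −0.44 ± 1.44, and 11 of 23 lay below the lowest WT mouse. They averaged −3.16 ± 0.90 on the shared-assay scale, with 12 of 23 below the lowest WT mouse.

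With adenoma only, 7 of 9 mice lay below the lowest WT mouse on the card mean scale. Their 9 levels were −2.84, −1.93, −1.23, −1.10, −0.90, −0.56, −0.30, 0.34 and 0.54, a mean of −0.89 ± 1.06. The lowest came from the card with the fewest measured assays, 68, and on the shared-assay scale that mouse lay at −2.95, near the middle of its group. There the group averaged −3.04 ± 0.65, with 4 of 9 mice below the lowest WT mouse.

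With both lesions, the mice fell further apart than with adenoma only on the shared-assay scale. Their 7 levels were −3.0, −2.62, −0.87, −0.76, −0.67, 0.22 and 0.52 on the card mean scale, a mean of −1.03 ± 1.33. In the same order of mice, the levels on the shared-assay scale were −4.68, −4.43, −2.57, −4.16, −2.79, −1.56 and −1.41, a mean of −3.09 ± 1.35. Thus 3 of the 7 mice lay below −4 on the shared-assay scale and 2 lay above the WT mean there. Below the lowest WT mouse lay 5 of 7 on the card mean scale and 3 on the other.

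With amyloidosis only, the levels of the 6 mice were −1.64, −1.15, −0.59, −0.26, 0.11 and 1.40 on the card mean scale, a mean of −0.35 ± 1.06. The mean was −2.94 ± 0.57 on the shared-assay scale, and 4 of 6 mice lay below the lowest WT mouse on each scale. A single mouse, at 1.40, lay above the WT median on the card mean scale.

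**Figure D1:**
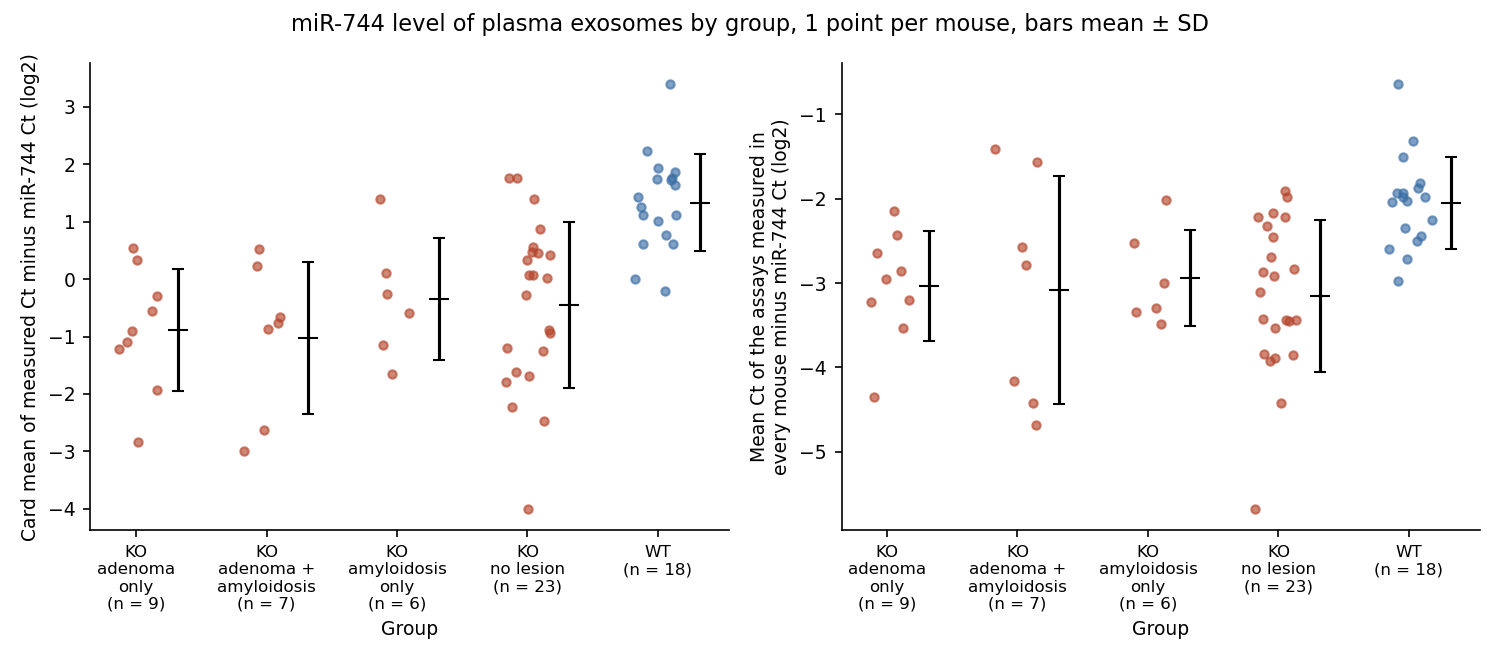
miR-744 level (log2) of each mouse in the 4 KO groups and in WT mice, on the card mean scale (left) and the shared-assay scale (right), 1 point per mouse, with the mean and SD of each group. The 4 KO means lie between −1.03 and −0.35 on the card mean scale, against 1.33 in WT mice, and between −3.16 and −2.94 on the shared-assay scale, against −2.05 in WT mice.

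Ordered by mean on the card mean scale, the groups ran from both lesions through adenoma only, no lesion and amyloidosis only to WT. The order on the shared-assay scale was no lesion, both lesions, adenoma only, amyloidosis only and WT. Between neighbouring KO groups the step was smaller than the SD of either group on both scales, so the order among the KO groups is not resolved. The differences from WT mice on the card mean scale were −2.36 with both lesions, −2.22 with adenoma only, −1.78 without lesions and −1.69 with amyloidosis only. They were, on the shared-assay scale, −1.04, −0.99, −1.11 and −0.90 in the same order of groups. Relative to U6 alone, the means were −8.13 with both lesions, −6.93 with adenoma only, −7.30 without lesions and −6.34 with amyloidosis only, against −6.07 in WT mice.

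By age, the difference from WT mice had no steady course. KO mice of age groups 1 to 6 averaged, on the card mean scale, −0.27, −0.67, −0.06, −0.00, −0.91 and −0.82, and WT mice averaged 2.11, 0.88, 1.53, 1.23, 1.58 and 0.67. The resulting differences were −2.37, −1.54, −1.59, −1.23, −2.48 and −1.49. In age groups 1 and 3 all KO mice lay below all 3 WT mice. In age group 2 the KO mice spread over the widest range, from −4.00 to 1.76, and 2 of 6 lay above the WT median.

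The differences in age groups 1 to 6 were, on the shared-assay scale, −0.99, −0.71, −0.87, −0.95, −1.77 and −0.86. The largest was that of age group 5, where KO mice averaged −3.48 ± 0.96 and WT mice −1.71 ± 0.35 (SD, n = 10 and 3), with all 10 KO mice below all 3 WT mice. This age group joins 3 KO mice without lesions to 7 with lesions. With 3 WT mice per age group, single mice moved the values. Leaving out 1 mouse at a time moved the difference on the card mean scale over −2.92 to −1.73 in age group 1, −2.03 to −0.87 in age group 2 and −1.93 to −0.71 in age group 6. The same on the shared-assay scale gave −1.31 to −0.50, −0.99 to −0.25, −1.11 to −0.70, −1.30 to −0.74, −1.93 to −1.58 and −1.20 to −0.59 in age groups 1 to 6. The value of −0.25 in age group 2 left out the KO mouse whose miR-744 was not measured, and that of −0.50 in age group 1 left out the WT mouse with the highest level of all.

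**Figure D2:**
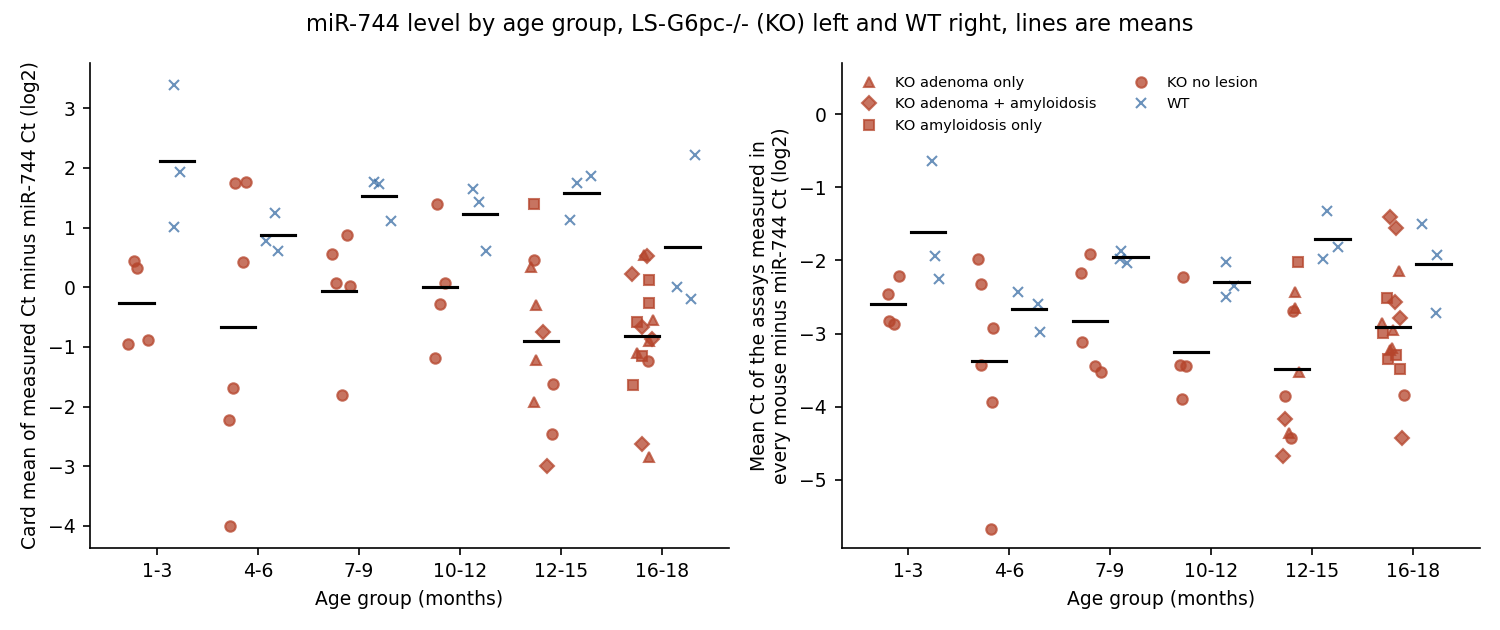
miR-744 level (log2) of each KO and WT mouse by age group, on the card mean scale and on the shared-assay scale, with lines through the group means. The mean of KO mice lies below that of WT mice in all 6 age groups on both scales, by 1.23 to 2.48 on the card mean scale.

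The cards were run in 3 calendar years, called run periods, and these were unequally spread over the groups. Periods 1, 2 and 3 held 8, 26 and 11 KO mice, but 0, 1 and 17 WT mice. Within period 3, miR-744 averaged −0.62 in 11 KO mice and 1.41 in 17 WT mice on the card mean scale, a difference of −2.03, and 7 of 11 KO mice lay below the lowest WT mouse. The difference in period 3 was −1.32 on the shared-assay scale. In period 2, the difference of 26 KO mice from the only WT mouse was −0.65 on the card mean scale and −0.03 on the shared-assay scale. For most KO mice the genotype and the run period therefore cannot be told apart.

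KO levels also moved with the run period on 1 scale. KO mice averaged −0.46, −0.65 and −0.62 on the card mean scale in periods 1, 2 and 3, whereas on the shared-assay scale they averaged −3.87, −2.75 and −3.33. The adenoma-only mice numbered 1, 6 and 2 over the periods, those with both lesions 2, 5 and 0, those with amyloidosis only 1, 3 and 2, and those without lesions 4, 12 and 7. Both mice with both lesions in period 1 were among the 3 that lay below −4 on the shared-assay scale.

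Whether the lesions changed miR-744 was tested among the 30 KO mice of age groups 4 to 6, 22 with a lesion and 8 without, with limma fitted to all 61 assays and Benjamini-Hochberg adjustment over them. No contrast of miR-744 passed an adjusted p of 0.05, and for HCA the sign depended on the scale. The HCA effect, the mean of both adenoma groups minus that of both other groups, was −0.47 ± 0.45 (SE, 95% interval −1.39 to 0.44, adjusted p = 0.45) on the card mean scale. It was 0.15 ± 0.32 (interval −0.51 to 0.80, adjusted p = 0.90) on the shared-assay scale. The median HCA effect over all 61 assays was −0.71 on the card mean scale and −0.10 on the shared-assay scale, so miR-744 lay above the median assay on each. Of the 61 assays, 1.64% passed in this contrast on each scale, that is miR-145 alone, a microRNA of smooth muscle and mesenchyme, at −2.47 (adjusted p = 0.0061). That call was lost when run period entered the fit (−1.95, adjusted p = 0.098), with age group as a covariate (−2.05, adjusted p = 0.15), in age groups 5 and 6 alone (−2.06, adjusted p = 0.14) and without mice under 100 measured assays (−1.76, adjusted p = 0.10). No assay passed in limma under these 4 settings, and 7, 5, 4 and 9 had an unadjusted p under 0.05. With the number of measured assays as a covariate, 4 of the 61 passed on the card mean scale.

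The amyloidosis effect on miR-744 was 0.06 ± 0.45 (SE, interval −0.86 to 0.97, adjusted p = 0.91) on the card mean scale and 0.24 ± 0.32 (interval −0.41 to 0.90, adjusted p = 0.69) on the shared-assay scale. The interaction of both lesions was −0.39 (interval −2.23 to 1.44, adjusted p = 0.93) on the card mean scale and −0.58 (interval −1.89 to 0.73, adjusted p = 0.66) on the shared-assay scale. No assay passed in either contrast (0% of 61 in limma), while 5 and 1 had an unadjusted p under 0.05 on the card mean scale and 11 and 10 on the shared-assay scale. For amyloidosis on the card mean scale, 1 assay passed with run period as a block and 7 without mice under 100 measured assays, miR-744 not among them. These intervals leave room for changes of more than 1 cycle of amplification in some contrasts on both scales, as in the interaction.

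Each lesion group was also set against the 8 KO mice of age groups 4 to 6 without lesions, in which miR-744 averaged −0.61 ± 1.25 on the card mean scale and −3.48 ± 0.71 on the shared-assay scale (SD). Of these 8 mice, 4 were in age group 4, which held no mouse with a lesion, and 1 was in age group 6. With adenoma only the difference was −0.28 (interval −1.48 to 0.93, adjusted p = 0.80) and 0.44 (interval −0.42 to 1.30, adjusted p = 0.59). With both lesions it was −0.42 (interval −1.70 to 0.87, adjusted p = 0.63) and 0.39 (interval −0.53 to 1.31, adjusted p = 0.57). With amyloidosis only it was 0.25 (interval −1.09 to 1.60, adjusted p = 0.96) and 0.53 (interval −0.43 to 1.49, adjusted p = 0.80). In each pair the first value is on the card mean scale and the second on the shared-assay scale, and all 3 values were above 0 on the shared-assay scale. In these 3 contrasts 1.64%, 6.56% and 0% of the assays passed on the card mean scale, and on the shared-assay scale 13.1%, 0% and 0%, without miR-744 in each case. Where no assay passed in limma, an unadjusted p under 0.05 was reached by 2 assays with amyloidosis only on the card mean scale, and by 12 with both lesions and 8 with amyloidosis only on the shared-assay scale. With age group as a covariate, the card mean differences of miR-744 were 0.36 with adenoma only, 0.23 with both lesions and 0.92 with amyloidosis only. None of them passed.

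Age was tested first in mice without lesions. Among the 23 KO mice without lesions the slope of miR-744 per age group was −0.11 (interval −0.54 to 0.31, adjusted p = 0.84 in limma) on the card mean scale and −0.18 (interval −0.44 to 0.08, adjusted p = 0.39) on the shared-assay scale. In the same order of scales it was −0.15 in WT mice (interval −0.40 to 0.09, adjusted p = 0.37) and 0.01 (interval −0.16 to 0.18, adjusted p = 0.99). The slopes of both genotypes differed by 0.04 (KO minus WT, interval −0.45 to 0.53, adjusted p = 0.94) and −0.19 (interval −0.50 to 0.11, adjusted p = 0.51). On the card mean scale 0% of the assays passed for each of these 3 quantities, with 2, 6 and 8 assays at an unadjusted p under 0.05, and on the shared-assay scale 1.64%, 0% and 1.64% passed, with 12, 4 and 9. An F test over the 6 age groups of all 45 KO mice gave adjusted p = 0.74 and 0.54 on these scales, where 0% and 11.5% of the assays passed and 14 and 21 had an unadjusted p under 0.05. That test included the mice with lesions, all of them in age groups 5 and 6, so age and lesions cannot be told apart in it.

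**Figure D3:**
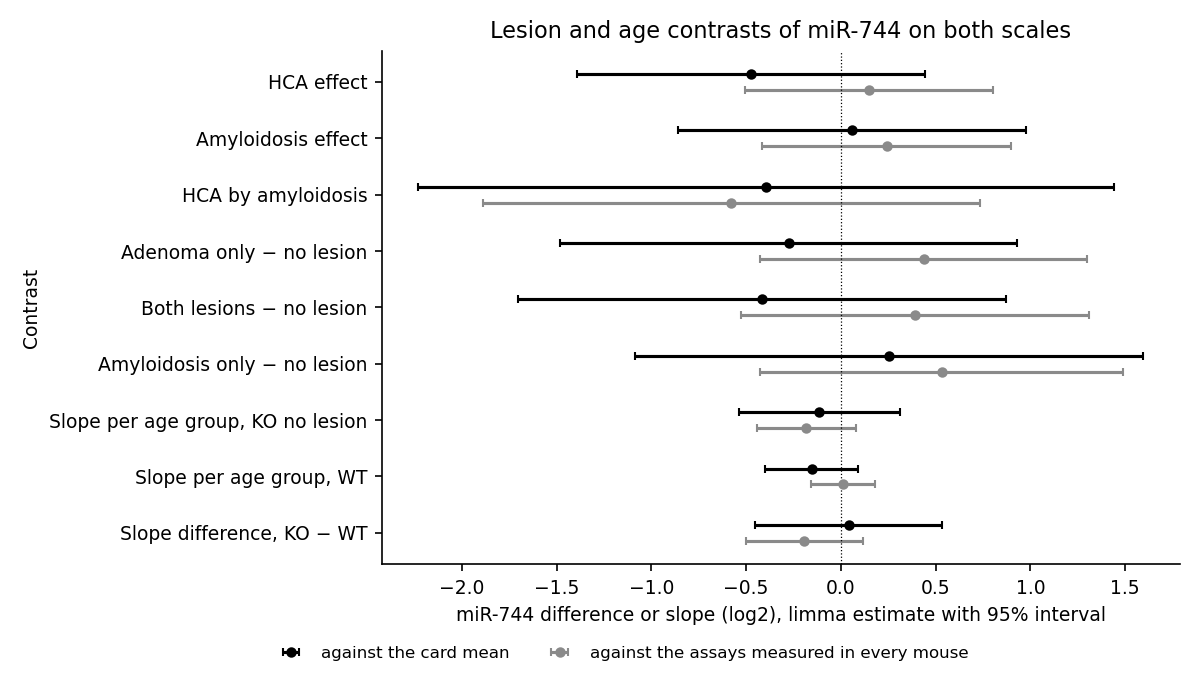
Estimate and 95% interval (limma, log2) of each lesion contrast among the 30 KO mice of age groups 4 to 6, and of the slope per age group, for miR-744 on the card mean scale (black) and the shared-assay scale (grey). All intervals span 0, and the HCA effect is −0.47 on the card mean scale and 0.15 on the shared-assay scale.

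A list of 8 other Exo-miRs was taken from those the study names (let-7i, miR-29a, miR-15b, miR-342-3p, miR-142-3p, miR-145, miR-409-3p and miR-486), and it leaves out others that the study names as well. The study chose them on these same mice, so they are no independent evidence. In the HCA contrast 1 of the 8 passed on each scale, miR-145, against 1 of all 61 assays. It was lower with HCA but lost the call under the settings given above. With adenoma only against no lesion, 1 of 8 passed on the card mean scale, miR-145, which was lower, against 1 of all 61 assays. On the shared-assay scale 3 of 8 passed, miR-15b, miR-142-3p and miR-145, all lower with adenoma, against 8 of all 61. When run period entered the fit as a block, the call of miR-145 was lost on the card mean scale (adjusted p = 0.12) while these 3 still passed on the shared-assay scale, and with age as a covariate none of the 8 passed on the card mean scale. With both lesions, 2 of 8 passed on the card mean scale, miR-145 and the red cell microRNA miR-486, both lower, against 4 of all 61 assays. Neither passed with run period as a block, with age as a covariate or in age groups 5 and 6 alone, where the adjusted p of miR-145 was 0.20, 0.69 and 0.53. Other settings called more of the 61 assays with both lesions on the card mean scale. These were 21 with the number of measured assays as a covariate and 23 without mice under 100 measured assays. With adenoma only these settings gave 9 and 1. In these contrasts miR-744 did not pass, and whether it differed from those assays was not tested.

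On the card mean scale the level of miR-744 moved with how many assays a card measured. KO cards measured 126.1 ± 29.2 assays and WT cards 146.5 ± 22.8 (SD, n = 45 and 18). The level on the card mean scale correlated with that number in KO mice (Pearson r = 0.66, Spearman rho = 0.74, p = 1e-05 for r, the smallest the permutation test can give) and in WT mice (r = 0.81, rho = 0.75, permutation p = 8e-05). Without the 2 mice farthest from the median number, r was 0.68 in KO mice and 0.76 in WT mice. Within run periods r was 0.85, 0.73 and 0.90 in KO mice of periods 1, 2 and 3, and 0.78 in WT mice of period 3. The relation was a common one, as the r of miR-744 ranked 36th of 61 assays in KO mice and 15th in WT mice.

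The relation was not resolved over all mice on the shared-assay scale, where r was above 0 in every run period tested. Over all mice r was −0.01 in KO mice (permutation p = 0.96) and 0.14 in WT mice (permutation p = 0.58). Within run periods 1, 2 and 3 of KO mice it was 0.48, 0.23 and 0.65, and in WT mice it was 0.04 in period 3 and 0.50 without the 2 farthest mice. Without the 9 mice of under 100 measured assays, the KO minus WT difference was −1.71 on the card mean scale and −0.95 on the shared-assay scale. What part the number of measured assays had in the genotype difference was not tested beyond these values.

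**Figure D4:**
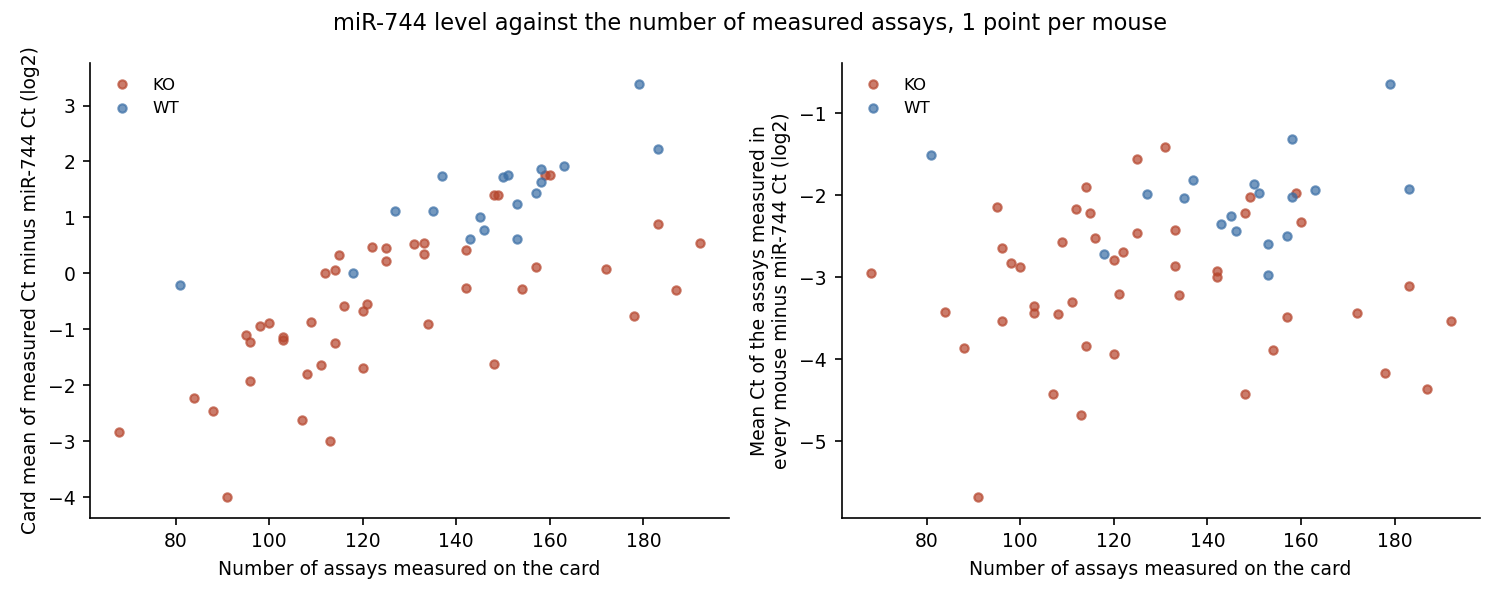
miR-744 level (log2) of each mouse against the number of assays measured on its card, on the card mean scale (left) and the shared-assay scale (right), for KO and WT mice. On the left the points rise with the number of assays (r = 0.66 in KO and 0.81 in WT mice), while on the right r over all mice is −0.01 in KO and 0.14 in WT mice, and 0.48, 0.23 and 0.65 within run periods 1, 2 and 3 of KO mice.

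The Exo-miRs that varied with miR-744 were sought by correlating its level with that of each of the 60 other retained assays, within each genotype. Both levels of a pair share the reference of the card, which by itself can raise r on the card mean scale. On the shared-assay scale the levels of the 44 reference assays sum to 0 in each mouse. Their covariances with miR-744 therefore also sum to 0, so a median r near 0 and some negative r are partly set by that reference. Permutation p-values were adjusted over the 60 assays. On the card mean scale 52 of 60 assays (86.7%) passed in KO mice and 37 of 60 (61.7%) in WT mice, all positively. There were far fewer on the shared-assay scale, where 4 of 60 (6.67%) passed in KO mice, 3 positively, and 14 of 60 (23.3%) in WT mice, 10 positively. The median r was 0.51 in KO mice and 0.61 in WT mice on the card mean scale, and 0.0053 and 0.13 on the shared-assay scale. That miR-744 correlated with most assays was not particular to it, as its median r on the card mean scale ranked 33rd of 61 in KO mice and 13th in WT mice.

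In KO mice the highest r on the card mean scale was that of miR-195, a member of the miR-15/16 seed family known to restrain the cell cycle, at 0.78 (Spearman rho = 0.80). miR-20b (0.74), miR-26b (0.73), miR-140 (0.72) and miR-19b (0.72) followed, of which miR-20b and miR-19b come from microRNA families known to promote growth. All 5 had an adjusted p of 3e-05. Of these, miR-195 alone passed on the shared-assay scale. At the other end were miR-409-3p (r = −0.06), miR-685 (0.16) and miR-342-3p (0.18), none of which passed.

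In WT mice the highest r was that of miR-451, the most characteristic microRNA of red blood cells, at 0.88 (Spearman rho = 0.88). It was followed by miR-195 (0.88), let-7g (0.87), miR-30b (0.87) and let-7i (0.86), all with an adjusted p of 0.00015. Of these 5, 4 passed on the shared-assay scale, and let-7i, at r = 0.56, had an adjusted p of 0.061. Without the 2 farthest WT mice the r of miR-451 on that scale was 0.43. At the other end were miR-685 (−0.25), miR-193b (−0.20) and miR-328 (−0.05), none of which passed on the card mean scale.

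The assays that passed on both scales with the same sign numbered 3 in KO mice, miR-101a, miR-195 and miR-30e, and 10 in WT mice. Common to both genotypes were 2, miR-195 and miR-30e, and miR-101a and miR-30e were named after their values were seen. On the shared-assay scale miR-195 had r = 0.48 in KO mice (rho = 0.52, adjusted p = 0.024) and 0.65 in WT mice (rho = 0.65, adjusted p = 0.029). Within run periods 1, 2 and 3 of KO mice its r on that scale was 0.59, 0.35 and 0.32, all above 0. miR-30e had r = 0.52 in KO mice (rho = 0.55, adjusted p = 0.020) and 0.64 in WT mice (rho = 0.65, adjusted p = 0.029), and within the run periods 0.37, 0.53 and 0.41. Without the 2 mice farthest from the median, r was 0.44 for miR-195 and 0.41 for miR-30e in KO mice, and 0.68 and 0.62 in WT mice. The correlation of miR-101a in KO mice, 0.45, was 0.36 without the mouse whose miR-744 was not measured.

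A few assays ran opposite to miR-744 on the shared-assay scale, where the reference by itself makes some r negative. In KO mice this was miR-223, a microRNA of myeloid cells and platelets, with r = −0.43 (rho = −0.44, adjusted p = 0.049), although it passed positively on the card mean scale at 0.44. Within run periods 1, 2 and 3 its r on the shared-assay scale was −0.60, −0.50 and 0.31, so the sign was not the same in all 3. In WT mice, the assays past the threshold in this direction were miR-150 (−0.69) and miR-342-3p (−0.65), both abundant in lymphocytes, with miR-139-5p (−0.67) and miR-685 (−0.59). miR-223 in WT mice lay at −0.55 and did not pass (adjusted p = 0.061). Without the 2 farthest WT mice, r was −0.75 for miR-150 and −0.77 for miR-342-3p, but −0.40 for miR-139-5p and −0.43 for miR-685.

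**Figure D5:**
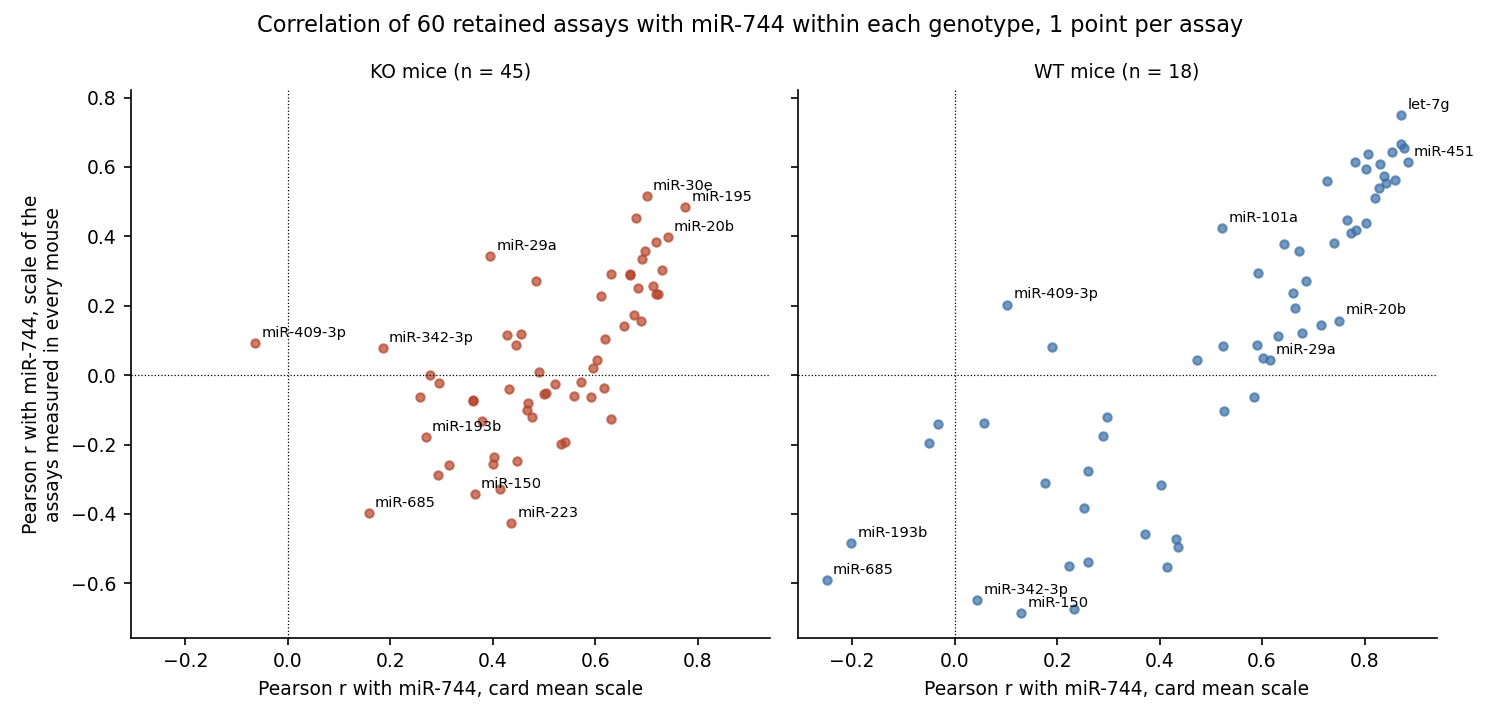
Pearson r of each of the 60 other retained assays with miR-744 on the card mean scale (horizontal) and on the shared-assay scale (vertical), in KO mice (left, n = 45) and WT mice (right, n = 18), 1 point per assay. Nearly all points lie right of 0, with medians of 0.51 in KO and 0.61 in WT mice, while on the vertical axis they spread around 0, from −0.43 to 0.52 in KO mice and −0.69 to 0.75 in WT mice. The reference of the shared-assay scale by itself places some r below 0.

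By seed family, the let-7 assays (let-7b, -7c, -7d, -7e, -7g and -7i), known as repressors of growth genes, passed in 6 of 6 cases in KO mice and 5 of 6 in WT mice on the card mean scale, with median r of 0.64 and 0.73. Over all 60 assays 52 passed in KO mice and 37 in WT mice, with medians of 0.51 and 0.61. Of the 6, 0 passed in KO mice and 1, let-7g, in WT mice on the shared-assay scale, where the median r of the 6 was 0.14 and 0.36, against 0.0053 and 0.13 over all 60. The 3 assays with the seed of miR-195 (miR-15b, miR-16 and miR-195) all passed in each genotype on the card mean scale. On the shared-assay scale 1 passed in KO mice, miR-195, and 2 in WT mice, miR-16 and miR-195, while miR-15b lay at −0.20 in KO mice and −0.10 in WT mice. Over the 3 assays the median r was 0.61 in KO mice and 0.83 in WT mice on the card mean scale, and 0.23 and 0.61 on the shared-assay scale. Of the 8 Exo-miRs from the study, 5 passed in KO mice and 4 in WT mice on the card mean scale, against 86.7% and 61.7% of all 60 assays. None passed in KO mice on the shared-assay scale and 1 in WT mice, miR-342-3p, with a negative r.

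Some markers of blood cells moved with miR-744 and others did not. Of 4 erythrocyte microRNAs, 3 were on the card and retained (miR-451, miR-486 and miR-16), and 2 of them, miR-451 and miR-16, passed positively in WT mice on both scales. miR-486 did not pass in WT mice, at r = 0.25 on the card mean scale and −0.38 on the shared-assay scale. In KO mice miR-451 and miR-16 passed on the card mean scale, and none of the 3 passed on the shared-assay scale. The summed level of the 3 on the card mean scale averaged between 5.70 and 7.64 in the 4 KO groups (single mice 4.99 to 9.79), against 8.12 in WT mice (6.29 to 9.45). On the shared-assay scale the averages were 3.64 to 4.92 in the KO groups (2.01 to 6.71) and 4.74 in WT mice (3.83 to 5.41). Of 7 leukocyte microRNAs 5 were retained. On the card mean scale all 5 had r above 0 in each genotype, and 4 passed positively in KO mice and 1 in WT mice. On the shared-assay scale 1 of the 5 passed negatively in KO mice and 2 in WT mice, against 1 and 4 of all 60 assays. The median r of the 5 on the shared-assay scale was −0.10 in KO mice and −0.55 in WT mice. Their summed level on that scale averaged between 2.63 and 3.35 in the KO groups (single mice 1.65 to 4.30) and 3.16 in WT mice (1.87 to 4.15). The card mean averages were 4.74 to 6.07 in the KO groups and 6.54 in WT mice. These sums leave out miR-155 and miR-142-5p, which were not retained. On the shared-assay scale miR-155 averaged −0.67 in the 40 KO mice that measured it and −5.03 in 17 WT mice (card mean scale 1.93 and −1.53). miR-142-5p averaged −6.40 in 21 KO mice and −6.09 in 16 WT mice (−3.52 and −2.57). The part of red or white blood cell RNA in the level of miR-744 was not tested.

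Of the hepatocyte markers, miR-192 was retained and measured in all 63 mice, while miR-122, which dominates the microRNA pool of hepatocytes, gave a measured Ct in 38 of 45 KO mice and 15 of 18 WT mice and miR-194 in 37 of 45 and 17 of 18. miR-192 correlated with miR-744 at r = 0.43 in KO mice and 0.19 in WT mice on the card mean scale, and at 0.12 and 0.08 on the shared-assay scale, where neither passed. The hepatocyte markers did not move alike between genotypes. On the card mean scale miR-192 averaged 1.79 in KO and 1.61 in WT mice, and miR-122 averaged 1.56 and 1.23 where measured. miR-194 averaged −1.76 and −0.73 where measured, so it was lower in KO mice. On the shared-assay scale these markers averaged −0.70 and −1.77, −1.16 and −2.28, and −4.45 and −4.23 in the same order. By lesion group the level is given for miR-192 alone. On the shared-assay scale miR-192 averaged −0.04 with adenoma only, 0.29 with both lesions, −0.28 with amyloidosis only and −1.37 in the mice of all ages without lesions (single mice −3.12 to 2.51 in KO mice), against −1.77 in WT mice (−3.79 to 1.66). The averages were 2.12, 2.35, 2.31 and 1.35 in the same KO groups on the card mean scale, against 1.61 in WT mice. All mice with a lesion were in age groups 5 and 6, so age and lesions cannot be told apart in these averages. In the limma fits above, without covariates, miR-192 did not pass for the HCA or amyloidosis effect on either scale. The part of miR-192 in the miR-744 contrasts was not tested.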

How the data were processed

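Plasma exosome RNA of 63 mice was reverse transcribed, pre-amplified and run by the authors on TaqMan rodent cards, 1 card per mouse, so replicates are separate mice. The authors deposited raw Ct values and normalized Ct values, both on a log2 scale with its sign reversed. The deposited files also give the signal threshold at which each Ct was read, another value on no common unit, which was 0.1 in all wells used. From the Ct values, levels were rebuilt as described by the methods of the study. A Ct of 14 to 32 was taken as measured, and the mean of a card was the reference. Assays measured in at least 95% of the mice were kept. For missing values the methods name the Mestdagh method without giving its rule. Here a missing value was set 1 cycle beyond the least abundant measured level of its assay. Apart from sign, the measured levels of the retained assays differed from the deposited normalized values by at most 0.0275, which does not check the missing values. The methods name a rank product test, which was not used here. Lesion and age contrasts were fitted with limma 3.58.1 in R 4.3.3 and adjusted by Benjamini-Hochberg over the 61 assays. Correlations used two-sided permutation tests with 100000 resamples, exact under 10 mice (numpy 2.4.6 in Python 3.11.15). Scripts were tested on simulated data.

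Lesions and age groups come from the labels. Their months come from the study, whose sections differ on age group 5: its Results, followed here, start it at month 12, and its Methods at a later month. Run periods are the calendar years in the card files. The named assays were, beside miR-744, the 5 highest and 3 lowest r on the card mean scale in each genotype, 8 of the Exo-miRs named by the study and the cell markers. Members and lists were chosen with earlier results of these data known. Alternatives changed the reference, the Ct limit, the filter, the treatment of missing values, the run period, the number of measured assays as a covariate and the mice used. The number of mice and of measured assays limits the precision.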

Additional observations from a re-analysis of the deposited data

How the results depend on the processing

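Over the alternative settings of the 10 tests of miR-744, none passed the threshold (lowest adjusted p = 0.32), 109 kept the sign and 35 turned it, and the cause was not tested. The HCA effect (−0.47) was 0.15 on the shared-assay scale, 0.24 without U6 in that reference, and 0.059 with run period as a block on that scale. The amyloidosis effect (0.06) was −0.17 against the card median and −0.17 against U6, −0.024 with the number of measured assays as a covariate and −0.43 without mice under 100 measured assays. Adenoma only minus no lesion (−0.28) was 0.44 on the shared-assay scale, 0.46 without U6, 0.26 against U6, 0.20 with the run block on the shared-assay scale, 0.047 with the covariate, 0.17 without mice under 100 assays, 0.36 with age as a covariate and 0.33 in age groups 5 and 6. Both lesions minus no lesion (−0.42) was 0.39, 0.52 without U6, 0.31 with the run block on the shared-assay scale, 0.23 with age as a covariate and 0.19 in age groups 5 and 6. Amyloidosis only minus no lesion (0.25) was −0.056 against the card median and −0.010 without mice under 100 assays. The slope in KO mice (−0.11) was 0.17 against U6. The slope in WT mice (−0.15) was 0.0097 on the shared-assay scale, 0.050 with the run block there, 0.16 against U6 and 0.016 with the covariate. The slope difference (0.04) was −0.19 on the shared-assay scale, −0.21 without U6, −0.078 with the run block there, −0.0017 with a Ct limit of 35, −0.039 with missing values left out, −0.039 without the mouse whose miR-744 was not measured, −0.23 with the covariate and −0.13 without mice under 100 assays.

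The KO minus WT difference (−1.94) was −0.65 in run period 2 alone, with 1 WT mouse, and that of KO mice without lesions (−1.78) was −0.25 there. With adenoma only it (−2.22) was −0.99 on the shared-assay scale, −1.001 without U6 and −0.87 against U6. With both lesions (−2.36) it was −1.04 on the shared-assay scale, −0.93 without U6 and −0.76 in run period 2. With amyloidosis only (−1.69) it was −0.27 against U6. In age group 1 (−2.37) it was −0.99 on the shared-assay scale. Leaving out 1 mouse at a time gave −2.92 to −1.73, −2.03 to −0.87, −1.83 to −1.16, −1.70 to −0.83, −2.74 to −2.25 and −1.93 to −0.71 in age groups 1 to 6.

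Correlates past the threshold numbered 4 instead of 52 in KO mice and 14 instead of 37 in WT mice on the shared-assay scale, and 27 among the 8 KO mice of run period 1. The r with the number of measured assays became −0.0073 in KO mice and 0.14 in WT mice on that scale. The r of miR-409-3p in KO mice (−0.06) was 0.093 on the shared-assay scale and 0.063 in run period 1, that of miR-685 (0.16) was −0.40 on the shared-assay scale, and that of miR-328 in WT mice (−0.05) was 0.14 without the 2 farthest mice.

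The reference without U6, the run block on the shared-assay scale and leaving out the unmeasured mouse were chosen after seeing the data. The filter on assays measured in every mouse gave no value, since miR-744 was missing in 1 mouse. No paired analysis was possible because every card came from another mouse, with no pairing in the labels between groups. With 1 to 3 WT mice in an age group or run period 2, single mice decide those values.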
